A study of Mus musculus with 2 samples.

Results

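The sinusoidal endothelial genes described here are Stab1, Stab2, Lyve1, Clec4g, Fcgr2b, Oit3, Gpr182, Pecam1, Cdh5 and Eng, chosen by name as receptors, surface proteins and junction genes of the cells that line the liver sinusoid. All 10 were found in the deposited table, which holds 24377 genes with a count in either library. Liver RNA was compared between 2 pools of male C57BL/6J mice aged 9 to 11 weeks, each mixed in equal shares from 8 animals. All mice were fasted for 10 h, then injected with 300 mg/kg acetaminophen (APAP), an analgesic that kills hepatocytes at overdose, and livers were perfused with saline and taken 30 h later. One pool had received 4 doses of 5 mg/kg AZD7986, an inhibitor of the lysosomal protease cathepsin C, at 12 h before APAP, with APAP, and 12 h and 24 h after it. The other had received the vehicle at those times. No mice without APAP were analysed here, so the comparison is of injured livers with and without the inhibitor. The injury was not equal: the paper reports lower serum ALT, its measure of liver damage, and less necrosis with AZD7986 in these mice. The part of this difference in the values below was not tested.

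Sinusoidal endothelial cells form a wall with open pores and no basement membrane, which lets plasma reach the hepatocytes. They clear waste molecules from blood with scavenger receptors, lectins and Fc receptors, and APAP overdose is known to damage them together with pericentral hepatocytes. Beside this specialised set they share adhesion and junction proteins with the endothelium of all vessels.

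The assay, massive analysis of cDNA ends, sequences the 3′ end of each transcript, so counts are not divided by transcript length, and each gene is compared with itself between the pools. Depth was 7657855 counts in the vehicle library, where 22411 genes were seen, and 6700838 in that of AZD7986, where 21333 were seen. Counts were divided by size factors that set the median gene to no change. A ratio is the normalized count with AZD7986 over that with vehicle, and the brackets behind it hold the exact 95% interval from counting error. Because each group is 1 library, no test of the treatment and no p-value exists, and differences among the mice of a pool cannot be told apart from an effect of AZD7986. In RNA of whole liver, fewer endothelial cells and less RNA per endothelial cell cannot be told apart either.

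On the mouse build GRCm38 (mm10), the build of the authors' mapping, the genes are spread over 7 chromosomes. The paralogues Stab1 and Stab2 lie on chromosome 14 (31139013 to 31168641) and chromosome 10 (86841198 to 87008025). Oit3 (59422958 to 59441778) and Gpr182 (127747276 to 127751732) are also on chromosome 10, far from Stab2 and from each other. Clec4g (3707064 to 3720651) and Cdh5 (104101625 to 104144511) share chromosome 8. Fcgr2b lies on chromosome 1 (170958617 to 170976547), Eng on chromosome 2 (32646595 to 32682669), Lyve1 on chromosome 7 (110850607 to 110863239) and Pecam1 on chromosome 11 (106654217 to 106750628). Within the last 500 bases, where this assay counts, 4 genes are overlapped by a gene on the opposite strand. Eng shares 61 bases with Fpgs (110 counts with vehicle and 108 with AZD7986), Gpr182 shares 74 with Zbtb39 (38 and 17), Stab1 shares 112 with Nt5dc2 (12 and 2), and Stab2 lies opposite the antisense gene Gm16268 (1 and 2). The sources used here do not say whether strand was used in counting, so reads in these overlaps could belong to either gene.

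RefSeq start sites gave a promoter window of 250 bases before to 50 after the start for 5 genes, Stab1, Stab2, Clec4g, Fcgr2b and Eng. They were searched on both strands for the motif AGGAAG, bound by ETS factors such as ERG that maintain endothelial identity, and for the motifs AGATAA of GATA factors, GTAAACA of FOX factors and ACAATG of SOX factors. The ETS motif was found in 4 of the 5 windows, against 35.4% of all 32851 promoter windows of the same length. The SOX motif was in the Clec4g window alone, against 12.6% of all windows. The GATA and FOX motifs, in 11.2% and 3.65% of all windows, had 0 matches among the 5. The 4 windows with an ETS match are shown because they belong to genes on both sides of the comparison below. Each runs 5′ to 3′ over the 250 bases before the start on GRCm38.p6. Capitals mark matches on either strand (AGGAAG or its reverse complement CTTCCT for ETS, ACAATG for SOX).
Clec4g promoter, chr8:3720652-3720901, minus strand: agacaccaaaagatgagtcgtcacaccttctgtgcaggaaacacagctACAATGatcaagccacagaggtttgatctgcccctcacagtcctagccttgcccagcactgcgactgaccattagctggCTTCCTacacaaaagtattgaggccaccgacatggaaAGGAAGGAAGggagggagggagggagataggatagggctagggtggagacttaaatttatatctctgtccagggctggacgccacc
Stab1 promoter, chr14:31168642-31168891, minus strand: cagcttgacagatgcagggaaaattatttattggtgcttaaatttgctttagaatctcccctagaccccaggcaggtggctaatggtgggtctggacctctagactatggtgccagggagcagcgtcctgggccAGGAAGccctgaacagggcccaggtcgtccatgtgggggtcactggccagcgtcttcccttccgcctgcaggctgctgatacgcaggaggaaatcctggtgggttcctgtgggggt
Stab2 promoter, chr10:87007943-87008192, minus strand: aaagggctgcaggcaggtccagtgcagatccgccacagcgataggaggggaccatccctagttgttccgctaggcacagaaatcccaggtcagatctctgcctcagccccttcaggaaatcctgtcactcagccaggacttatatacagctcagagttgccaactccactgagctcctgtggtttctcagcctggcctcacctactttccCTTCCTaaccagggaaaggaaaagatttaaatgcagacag
Eng promoter, chr2:32646345-32646594, plus strand: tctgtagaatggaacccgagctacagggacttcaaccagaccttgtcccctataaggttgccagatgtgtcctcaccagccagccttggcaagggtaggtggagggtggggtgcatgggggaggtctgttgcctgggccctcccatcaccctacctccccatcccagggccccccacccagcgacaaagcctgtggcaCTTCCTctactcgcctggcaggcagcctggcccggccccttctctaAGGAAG
In Clec4g, 2 of its 3 ETS matches overlap each other. A match is a stretch of letters and says nothing of whether a factor was bound there in these livers.

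The 10 genes did not move as a block. Between the pools, 5 had an interval below 1 (Cdh5, Lyve1, Pecam1, Stab2 and Fcgr2b), 3 had one above 1 (Clec4g, Oit3 and Gpr182), and the intervals of Stab1 and Eng included 1. Over the 13523 genes counted 20 times or more in both libraries together, 15.1% had an interval below 1 and 17.9% one above 1. Over the 8894 genes counted 100 times or more, a range that holds all 10 members (138 to 783), these shares were 18.0% and 24.1%. The share of lower members, 5 of 10, is above that of all genes, while 3 higher members of 10 are near it. None reached the 2-fold change in either direction: 0 were at 0.5 or less, where 3.73% of all genes were, and 0 at 2 or more, where 2.22% were. A difference of 1.5-fold or more was found downward for 3 (Cdh5, Lyve1 and Pecam1), against 11.8% of all genes, and upward for 2 (Oit3 and Gpr182), against 8.98%. The upward count was 0 under library-total scaling and without scaling. Over genes counted 100 times or more, the shares past 2-fold were 0.956% downward and 0.787% upward. Those past 1.5-fold were 6.49% and 6.43%. The median log2 ratio of the 10 was −0.36, while that of all genes was −0.02, with the quartiles of all genes at −0.31 and 0.27. Summed over the 10, 2227 counts with vehicle stood against 1560 with AZD7986, a ratio of 0.845 [0.792, 0.902]. Leaving out Stab1, Lyve1 and Fcgr2b, which macrophages can also make, it was 0.893 [0.828, 0.964]. Without scaling, the split was 7 with an interval below 1 and 1 above it, where every gene lies 0.27 lower on the log2 scale.

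**Figure D1:**
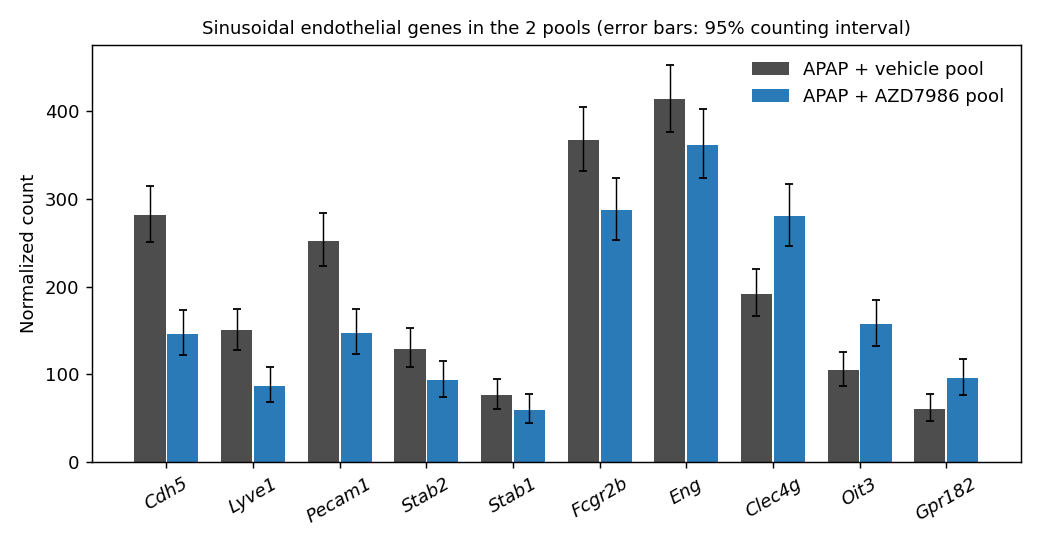
Normalized count of each gene (y axis) in the vehicle pool (grey) and the AZD7986 pool (blue), ordered by ratio, with error bars for the exact 95% counting interval of 1 library. Bars of the AZD7986 pool are shorter from Cdh5 to Eng, and taller for Clec4g, Oit3 and Gpr182.

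Among the 5 scavenger and endocytic receptors, the 2 stabilins stood close to each other. Stab2, the main receptor that removes hyaluronan from blood, was counted 142 times with vehicle and 85 times with AZD7986 (129 and 93.4 after normalization). The AZD7986 pool was lower, at 0.722 [0.546, 0.952]. Stab1, which takes up modified lipoproteins and is also made by some macrophages, was counted 84 and 54 times (76.5 and 59.3 normalized). Its ratio of 0.776 [0.541, 1.11] lay on the same side, but a difference was not detectable at this depth. The count of Stab1 per count of Stab2 was 0.592 with vehicle and 0.635 with AZD7986, an odds ratio of 1.07 [0.678, 1.696].

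Lyve1 and Fcgr2b were both lower with AZD7986, Lyve1 by more. Lyve1, a hyaluronan receptor of sinusoidal and lymphatic endothelium, was counted 165 times with vehicle and 79 times with AZD7986 (150.2 and 86.8 normalized), a ratio of 0.578 [0.436, 0.760]. Fcgr2b, the inhibitory receptor for immunoglobulin G that sinusoidal endothelium uses to clear small immune complexes, was counted 403 and 261 times (367 and 287 normalized), a ratio of 0.782 [0.666, 0.916]. The odds ratio of Fcgr2b over Lyve1 was 1.35 [0.982, 1.87], so these 2 did not separate beyond counting error.

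Clec4g stood on the other side. It encodes LSECtin, a C-type lectin of sinusoidal endothelium that binds glycans on pathogens and on activated T cells. It was counted 211 times with vehicle and 255 times with AZD7986, although the AZD7986 library was the smaller one (192 and 280.1 normalized). Its ratio was 1.46 [1.21, 1.76], and it was the 1 member whose interval stayed above 1 with no scaling at all (1.21 [1.003, 1.46]). Within the receptor group, ratios therefore ran from 0.578 to 1.46, and the summed ratio of the 5 was 0.881 [0.800, 0.970].

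Oit3 and Gpr182, neither a classical scavenger receptor, were higher with AZD7986. Oit3 encodes a secreted protein with a zona pellucida domain that is made in liver. It was counted 115 times with vehicle and 143 times with AZD7986 (105 and 157 normalized), a ratio of 1.501 [1.17, 1.94]. Gpr182 encodes an endothelial receptor that binds and removes chemokines without signalling through G proteins. It was counted 67 and 87 times (61.0 and 95.6 normalized), a ratio of 1.57 [1.13, 2.19]. Both intervals included 1 without scaling, at 1.24 [0.966, 1.60] for Oit3 and 1.30 [0.933, 1.81] for Gpr182. The opposite-strand neighbour of Gpr182, Zbtb39, differed in the other direction (38 and 17 counts), and its part in the value of Gpr182 was not tested.

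Of the 3 members that sinusoidal cells share with other endothelium, Cdh5 and Pecam1 were lower, and the interval of Eng included 1. Cdh5, which encodes VE-cadherin, the adhesion protein of endothelial junctions, had the lowest ratio of all 10. It was counted 309 times with vehicle and 133 times with AZD7986 (281 and 146 normalized), a ratio of 0.519 [0.421, 0.639]. Of the 13523 genes counted 20 times or more, many of them with fewer counts than Cdh5, 4.30% had a lower ratio. Pecam1, the adhesion molecule CD31 of endothelium, platelets and leukocytes, was counted 277 and 134 times (252 and 147 normalized), a ratio of 0.584 [0.471, 0.720]. Cdh5 and Pecam1 kept about the same proportion to each other, with 1.12 counts of Cdh5 per count of Pecam1 with vehicle and 0.993 with AZD7986 (odds ratio 0.890 [0.659, 1.20]). Eng, which encodes endoglin, a co-receptor for BMP9 on endothelium, was counted 454 and 329 times (413 and 361 normalized). Its ratio of 0.875 [0.757, 1.01] was the nearest to 1 of all members, and its interval lay below 1 when libraries were scaled by their totals (0.828 [0.716, 0.957]).

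**Figure D2:**
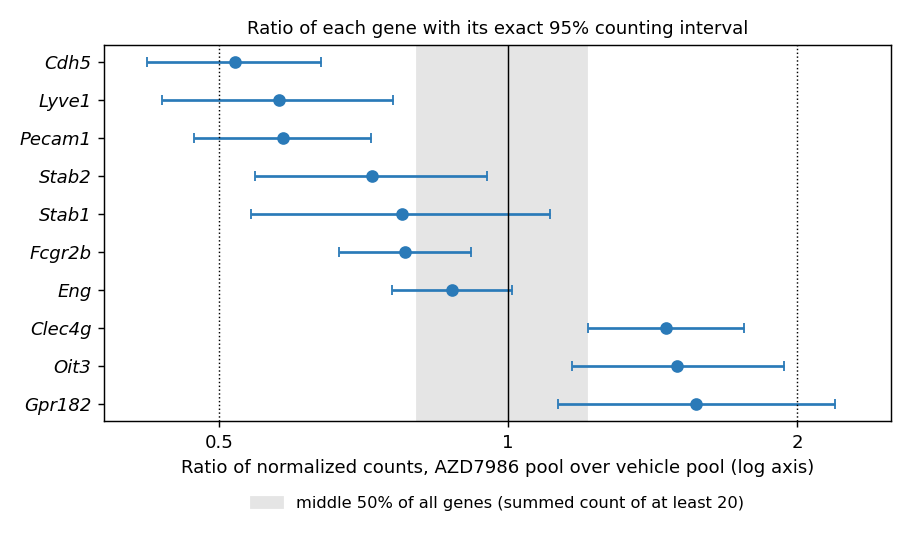
Ratio of normalized counts, AZD7986 pool over vehicle pool (x axis, log scale), for each gene with its exact 95% counting interval. Dotted lines mark 0.5 and 2, and the grey band runs between the quartiles of all 13523 genes; Cdh5, Lyve1, Pecam1, Stab2, Stab1 and Fcgr2b lie to its left, Eng inside it, and Clec4g, Oit3 and Gpr182 to its right.

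Ordered by ratio the genes ran Cdh5, Lyve1, Pecam1, Stab2, Stab1, Fcgr2b, Eng, Clec4g, Oit3 and Gpr182. Comparing counts of 2 genes inside each library needs no scaling, and gives for each pair an odds ratio with an exact interval. Of the 9 neighbouring pairs in this order, 1 differed beyond counting error, Clec4g over Eng. Clec4g had 0.465 counts per count of Eng with vehicle and 0.775 with AZD7986, an odds ratio of 1.67 [1.31, 2.12]. The other 8 neighbours had intervals that included 1. Of all 45 pairs, 26 had an interval that excluded 1. They comprised the 21 pairs of Clec4g, Oit3 or Gpr182 with another member, and 5 pairs among the other 7 genes, all of them Eng or Fcgr2b against Cdh5, Pecam1 or Lyve1. Clec4g, Oit3 and Gpr182 did not separate from each other (odds ratios 1.03 to 1.07). The widest contrast was that of Gpr182 and Cdh5, with 0.217 counts of Gpr182 per count of Cdh5 with vehicle against 0.654 with AZD7986, an odds ratio of 3.01 [2.03, 4.48]. The genes were put in order by these same values, so the pairs describe the order and do not test it.

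**Figure D3:**
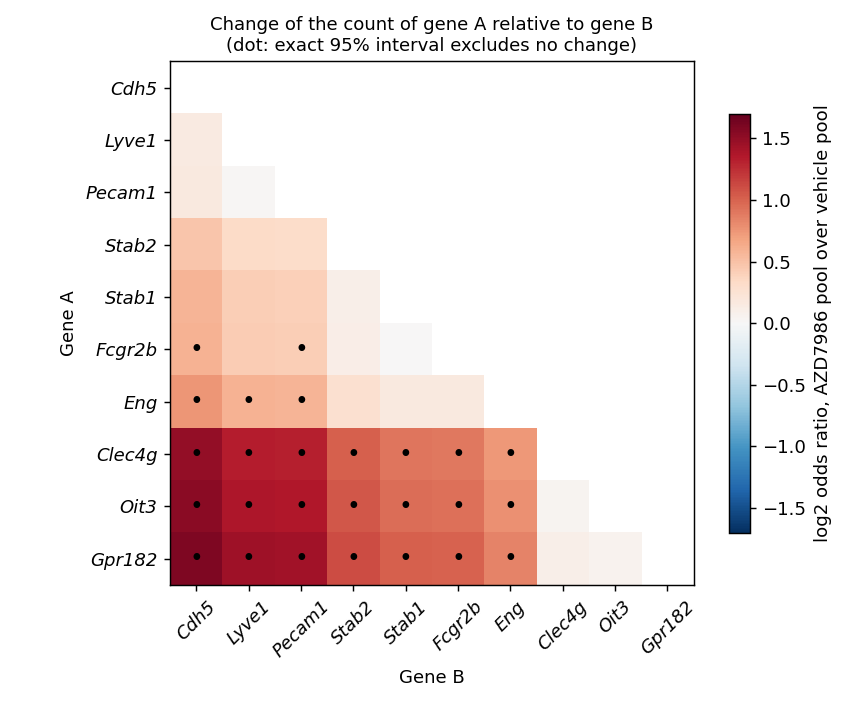
Log2 odds ratio of the counts of gene A (rows) over gene B (columns), AZD7986 pool over vehicle pool, for all 45 pairs, with genes in order of ratio. Dots mark the 26 pairs whose exact 95% interval excludes no change, and the rows of Clec4g, Oit3 and Gpr182 form the dark block of 21.

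Most other genes of sinusoidal endothelium could not be told apart from no change. On a list of 22 such genes, 21 were counted 20 times or more, with a median log2 ratio of −0.14. Of these 21, 6 had an interval below 1, 2 above 1, and 13 included 1. Over all genes, 15.1% lay below 1 and 17.9% above. The most counted were Maf, a transcription factor of sinusoidal identity (614 and 361 counts, 0.710 [0.621, 0.809]), and Egfl7, a secreted regulator of vessel formation (576 and 379 counts, 0.794 [0.696, 0.906]). Flt4, the VEGF receptor 3, was the lowest (140 and 52 counts, 0.448 [0.320, 0.620]). Gata4, the factor that drives sinusoidal rather than continuous endothelium, was also at 0.5 or less and is named after its value was seen (63 and 24 counts, 0.460 [0.275, 0.746]). The highest was Cd300lg, a receptor of the CD300 family found on capillary endothelium (26 and 52 counts, 2.41 [1.48, 4.03]). The other gene with an interval above 1, named after its value was seen, was F8, which encodes coagulation factor VIII, made in liver by sinusoidal endothelium (54 and 73 counts, 1.63 [1.13, 2.36]). Mrc1, the mannose receptor of these cells, stood at 0.9998 [0.793, 1.26], and Kdr, the VEGF receptor 2, at 1.17 [0.946, 1.44]. Both are named for their function after their values were seen. The part of other liver cells in the counts of this list was not tested.

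Some endothelial genes differ along the sinusoid from portal to central vein. Of 6 pericentral genes, 5 could be read, with a median of −0.14, 2 intervals below 1 and 1 above. Kit, a receptor tyrosine kinase, was counted 42 and 12 times (0.345 [0.165, 0.667]) and the thrombin receptor Thbd 62 and 30 times (0.584 [0.365, 0.917]). Rspo3, which strengthens Wnt signalling to pericentral hepatocytes, was higher (35 and 47 counts, 1.62 [1.02, 2.59]). Of 6 periportal genes, 5 could be read, with a median of −0.40, 2 intervals below 1 and 0 above. Msr1, a scavenger receptor that macrophages also make (307 and 193 counts, 0.759 [0.630, 0.911]), and the netrin Ntn4 (90 and 49 counts, 0.657 [0.454, 0.941]) had the intervals below 1. Ltbp4, a matrix protein that binds latent TGF-β, was not distinguishable (103 and 72 counts, 0.844 [0.615, 1.15]). Of the 5 readable periportal genes, Efnb2 had the lowest ratio, on few counts (23 and 9 counts, 0.472 [0.192, 1.06]). The highest was that of Dll4 (38 and 33 counts, 1.05 [0.637, 1.72]). Both are named after their values were seen, and both intervals included 1.

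Genes of continuous or capillarized endothelium, which sinusoidal cells take on when they lose their pores, mostly had intervals that included 1. Of 8 on the list, 6 had enough counts, with a median of −0.61. Of these 6, 2 had an interval below 1, 0 above, and 4 included 1. Over all genes, 15.1% lay below 1 and 17.9% above. Plvap, the protein of pore diaphragms, was counted 348 and 193 times (0.669 [0.558, 0.800]), and Esm1, a proteoglycan of sprouting endothelium, 158 and 59 times (0.451 [0.328, 0.611]). Ly6a stood at 0.910 [0.690, 1.20] with 126 and 95 counts. Cd34 (24 and 23 counts, 1.16 [0.624, 2.14]) and Vwf (17 and 9 counts, 0.639 [0.251, 1.52]), named after their values were seen, were not distinguishable. Genes of endothelial activation were hardly counted: of 6, only Vcam1, a ligand for leukocyte integrins (252 and 162 counts, 0.776 [0.633, 0.949]), and the vasoconstrictor Edn1 (23 and 9 counts, 0.472 [0.192, 1.06]) reached 20 counts.

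Partners of Cdh5 and Pecam1 at cell junctions were mostly lower too. Of 11 junction genes, 9 had enough counts, with a median log2 ratio of −0.56. Of these 9, 7 had an interval below 1 and 0 above. All 9 were counted 100 times or more, where 18.0% of all genes had an interval below 1 and 24.1% above. Ctnna1 and Ctnnd1, which encode the catenins that tie cadherins to actin and hold them at the membrane, were the most counted, at 0.763 [0.661, 0.879] (508 and 321 counts) and 0.661 [0.555, 0.785] (378 and 207 counts). Jup, which encodes plakoglobin, had the lowest ratio (203 and 88 counts, 0.523 [0.403, 0.675]). Esam, an adhesion molecule of endothelial tight junctions and platelets, followed (172 and 86 counts, 0.603 [0.460, 0.786]). Cldn5 (102 and 75 counts, 0.887 [0.650, 1.21]) and Icam2 (65 and 70 counts, 1.30 [0.914, 1.85]), named after their values were seen, had intervals that included 1. Catenins and plakoglobin are made by hepatocytes and bile duct cells as well, so their counts are not endothelial alone.

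Endoglin acts in BMP9 signalling. Of 15 genes of this pathway, 13 had enough counts, with a median of −0.34, 5 intervals below 1, 0 above and 8 that included 1. The target genes Id2 (2193 and 1558 counts, 0.857 [0.803, 0.915]) and Id1 (340 and 199 counts, 0.706 [0.590, 0.844]), which encode inhibitors of basic helix-loop-helix factors, were lower, while Id3 was near 1 (998 and 810 counts, 0.980 [0.892, 1.08]). The inhibitor Smad7 was lower (125 and 63 counts, 0.608 [0.442, 0.830]). The RNA is of whole liver, so these counts do not show in which cells the genes were lower. Gdf2, which encodes the ligand BMP9 and is named for that role after its value was seen, was counted 56 and 66 times (1.42 [0.981, 2.07]).

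Lists of genes related to the receptors were mixed. Fcer1g, the signalling chain of activating Fc receptors, was lower (360 and 207 counts, 0.694 [0.582, 0.826]), but it was the 1 of 5 genes of the Fc receptor list with an interval off 1. The list's median was 0.08, and the neonatal Fc receptor Fcgrt stood at 1.01 [0.892, 1.15]. Of 11 other scavenger and endocytic receptors, which include Mrc1 and Msr1 from the endothelial lists above, 4 had an interval below 1 and 1 above, with a median of −0.11. Dab2, an adaptor for endocytosis, was lowest (203 and 84 counts, 0.499 [0.383, 0.647]), Cd163, the macrophage receptor for haemoglobin, highest (76 and 98 counts, 1.56 [1.14, 2.13]), and the most counted, Lrp1 and Scarb2, were near 1 (1.01 [0.936, 1.10] and 0.939 [0.857, 1.03]). Among 4 readable genes of hyaluronan handling, Cd44, the leukocyte hyaluronan receptor related to Lyve1 (220 and 98 counts, 0.538 [0.419, 0.685]), and Cemip2, described as a cell surface hyaluronidase, (181 and 98 counts, 0.653 [0.506, 0.840]) were lower, and the hyaluronidase Hyal2 was higher (182 and 190 counts, 1.26 [1.02, 1.55]). The median of that list was −0.18.

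**Figure D4:**
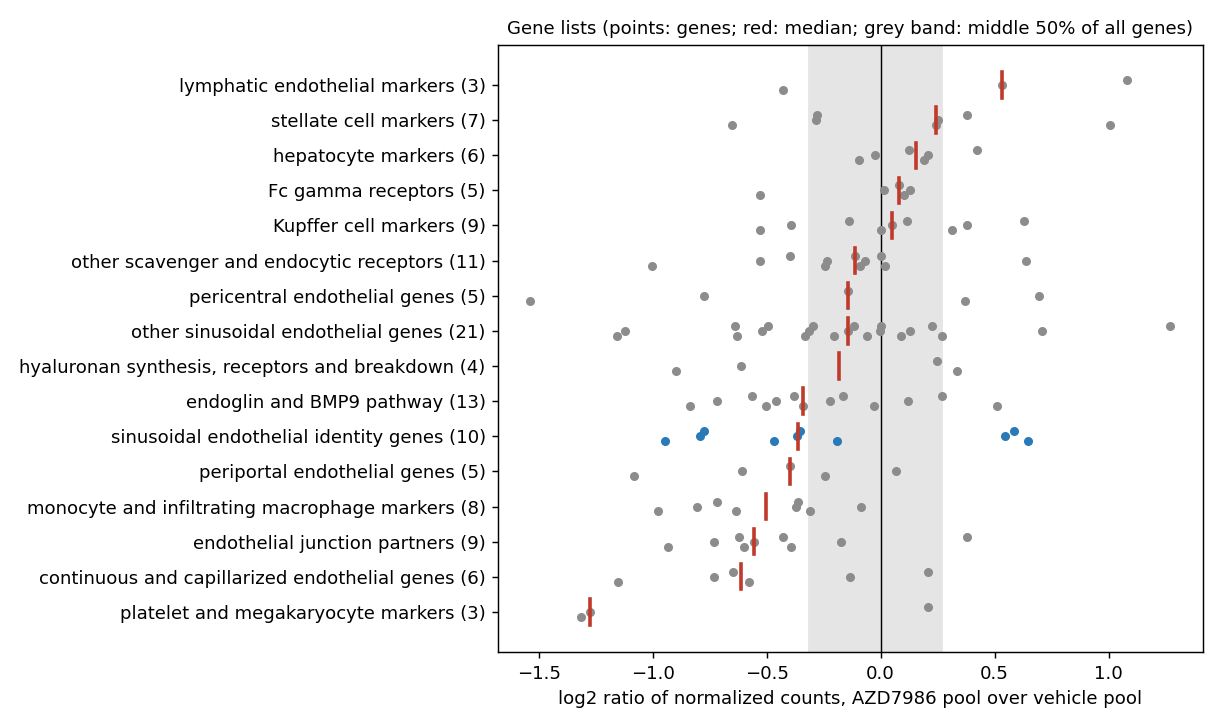
Log2 ratio of normalized counts (x axis) for every gene counted 20 times or more in the lists with 3 or more such genes (numbers in brackets). Points are genes, red marks the list medians, and the grey band the quartiles of all genes; the 10 sinusoidal endothelial genes (blue) leave a gap between Eng and Clec4g.

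Other cells of the liver make some of the 10 genes, and their markers are given beside them. Kupffer cells, which can carry Stab1 and Fcgr2b, had marker counts of 4472 and 3729 in sum (1.01 [0.963, 1.05]), a median of 0.05 that turned to −0.03 when libraries were scaled by total, and 2 markers of 9 below and 3 above. Cd5l (1.04 [0.956, 1.12]) and C1qa (1.24 [1.10, 1.40]) were the most counted, Timd4 (50 and 64 counts, 1.54 [1.05, 2.28]) and Marco (667 and 383 counts, 0.693 [0.610, 0.787]) lay at the extremes. Markers of monocytes and infiltrating macrophages were lower, with 3258 and 2102 counts in sum (0.779 [0.737, 0.823]), a median of −0.50, and 5 of 8 below and 0 above. They include Lyz2 (2124 and 1419 counts, 0.806 [0.753, 0.863]), Cd68 (0.773 [0.642, 0.928]), Chil3 (274 and 130 counts, 0.573 [0.461, 0.708]) and Ly6c2 (38 and 16 counts, 0.508 [0.265, 0.933]). Platelet genes, of interest for Pecam1 and Esam, had 221 and 91 counts in sum (0.497 [0.385, 0.637]) over 4 genes, the most counted being Pf4 (178 and 61 counts, 0.414 [0.304, 0.556]), while Itga2b stood at 1.15 [0.614, 2.17]. The part of these cells in the values of Stab1, Fcgr2b, Lyve1 and Pecam1 was not tested.

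Lymphatic endothelium, the other home of Lyve1, left few counts: Ccl21a, its chemokine, was counted 8 and 14 times (2.11 [0.827, 5.81]), and Prox1 (452 and 278 counts, 0.742 [0.637, 0.864]) is made by hepatocytes too. Of the 3 readable genes of that list, 1 had an interval below 1 and 0 above, with a median of 0.53 that turned to −0.43 when only Prox1, the 1 gene counted 100 times or more, was kept. Stellate cells, which wrap the sinusoid from outside, had a summed ratio of 0.956 [0.904, 1.01] and a median of 0.24, with 3 of 7 genes below and 2 above. They ranged from Pdgfrb, a receptor of activated stellate cells (112 and 59 counts, 0.636 [0.456, 0.879]), to Colec11, a collectin of quiescent cells (116 and 193 counts, 2.01 [1.59, 2.55]), with the most counted Dcn and Ecm1 at 0.825 [0.763, 0.891] and 1.19 [1.05, 1.35]. Hepatocyte genes had a median of 0.16, with 1 of 6 below and 4 above. Alb stood at 0.984 [0.978, 0.990], Apoa1 at 1.09 [1.08, 1.10], Serpina1a at 1.16 [1.14, 1.18] and Ttr at 1.34 [1.33, 1.35]. The part of hepatocytes in the values of the 10 genes, Oit3 among them, was not tested.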

How the data were processed

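RNA of 2 liver pools was sequenced from transcript 3′ ends by massive analysis of cDNA ends. Reads sharing a unique molecular identifier were collapsed by the authors, who then used cutadapt, took off poly(A) tails, mapped to mm10 and deposited HTSeq counts per gene, which are not normalized. Not given in the sources used here were the aligner, annotation release, strand setting and tool versions. The table also holds 6 columns of values that name neither sample, which were not used. The labels name MACE-kit v.2 and the methods the Rapid MACE-Seq kit. The labels give both libraries one treatment text, so the groups were taken from the titles.

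Counts were scaled by DESeq2 1.42.0 size factors (R 4.3.3). Each gene's ratio, its Clopper-Pearson interval (from how its counts split between the libraries) and conditional odds ratios were computed in Python 3.11.15 with scipy 1.17.1, numpy 2.4.6 and pandas 2.3.3, and figures drawn with matplotlib 3.10.9. Intervals cover counting error only, and the odds ratios are not adjusted for the number of pairs. The interval method was tried on simulated counts that held counting error only, so this says nothing of spread between mice or libraries. Lists were read over genes counted 20 times or more. Of 24377 identifiers, 23210 were in GENCODE M21, which gave coordinates, and promoter sequences are from RefSeq on GRCm38.p6. Named are the 10 genes and, in each further list, the 2 most counted and up to 2 with the largest change among intervals off 1, with other names marked. The list of B cell genes is not reported here. The members and lists were chosen with earlier results of these data known. Alternatives were TMM (edgeR 4.0.16), library-total or no scaling, other minimum counts, a 99% interval, an added 0.5, and subsets of the members.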

Additional observations from a re-analysis of the deposited data

How the results depend on the processing

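Replicates cannot be left out, since each group is 1 library, and the depth limits Stab1, Gpr182 and the lists with few counts most. Of the 10 genes, 0 changed direction under any alternative, and TMM scaling changed 0 of the calls. With 0.5 added to each scaled count, Oit3 stood at 1.498 rather than 1.501, just under the 1.5-fold limit. Scaling by library total brought Eng below 1, put 1 gene at 0.5 or less and left 0 at 1.5 or more; it lowers each log2 ratio by 0.08, and the genes concerned lie near these thresholds. Without scaling, 3 genes were at 0.5 or less, 6 at least 1.5-fold lower, 0 at 1.5 or more and 1 (Clec4g) with an interval above 1, Stab1 (0.643 [0.448, 0.916]) and Eng (0.725 [0.627, 0.837]) joined those below 1, and the median log2 ratio was −0.63, since every log2 ratio then lies 0.27 lower. With a 99% interval, 4 genes lay below 1 and 3 above. Without Stab1, Lyve1 and Fcgr2b, which macrophages also make, the median was −0.19 and the summed ratio 0.893 [0.828, 0.964], since 3 of the 7 lower genes are then missing. A minimum summed count of 100 left the members' values as they were and moved the medians of endothelial activation (−0.37, 1 gene), monocyte (−0.37, 6 genes) and lymphatic genes (−0.43, 1 gene).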
